A study of Mus musculus with 4 samples.

Results

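The SoxD genes Sox5, Sox6 and Sox13 and the SoxE genes Sox8, Sox9 and Sox10 were compared between PSC-derived SG placodes and embryonic submandibular glands (SMGs). These 6 genes were taken by symbol from a table of 24771 features, and all 6 were found, each in a single row. Total RNA of 2 placode samples on day 10 and of 2 samples of SMGs from E12.5 mouse embryos had been sequenced. The placodes, which GEO's labels call induced embryonic salivary glands, were grown from 1 line of mouse embryonic stem cells, 129w2, with 3000 cells in each well and 2% Matrigel in the medium. They received 2 ng/ml BMP4 on day 3, 25 ng/ml bFGF with 1 μM retinoic acid (RA) on day 4 and 200 ng/ml FGF10 from day 6. The SMGs were untreated tissue. The mouse strain, the number of embryos per sample and the way in which the SMGs were freed of surrounding tissue are not given in the sources used here. Nothing in the labels says that the 2 samples of a group were separate cultures or litters, so the p-values measure only the spread between these samples.

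Values are FPKM as the authors deposited them, that is, fragment numbers scaled for transcript length and for the mapped total of the sample. Features with at least 1 FPKM on average over the 4 samples were tested with limma on log2(FPKM + 1), and all 6 genes passed this filter. Sox5 passed it through the placodes, because its mean in the SMGs was below 1 FPKM. For any gene that passed through 1 group in this way, the direction of the difference follows from the filter. A gene is called higher or lower at an adjusted p below 0.05, and fold changes are differences of log2(FPKM + 1), placodes minus SMGs. The number of fragments per sample is unknown, so no counting intervals are given. Pearson's r of log2(FPKM + 1) over the tested features was 0.994 for the pair of placode samples and 0.992 for the pair of SMG samples.

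Sox proteins are transcription factors that bind DNA through an HMG box and bend it. The SoxE proteins Sox8, Sox9 and Sox10 carry activation domains and drive programs such as cartilage formation, neural crest development and gliogenesis. In the early salivary gland, Sox9 and Sox10 are expressed by epithelial progenitors of the bud, and Sox10 also by the Schwann cell precursors of the gland's nerves. The SoxD proteins Sox5, Sox6 and Sox13 have no activation domain of their own, pair through a coiled coil and either help or oppose SoxE proteins, depending on the tissue.

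The HMG box is the part in which the 6 genes are most alike, and its coding sequence is shown to make clear how close the members are as templates for mapped reads. The stretch is the 60 coding bases of Sox9 with the best total match in the other members (GRCm38, gene strand, GENCODE M21). Capitals mark bases that differ from Sox9.
Sox9: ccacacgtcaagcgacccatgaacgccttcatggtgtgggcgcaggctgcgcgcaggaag
Sox8: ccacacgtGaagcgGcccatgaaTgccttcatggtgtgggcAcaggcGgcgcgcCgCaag
Sox10: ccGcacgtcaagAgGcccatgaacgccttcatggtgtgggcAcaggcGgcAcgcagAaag
Sox5: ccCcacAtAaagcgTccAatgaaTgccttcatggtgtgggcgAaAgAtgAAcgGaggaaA
Sox6: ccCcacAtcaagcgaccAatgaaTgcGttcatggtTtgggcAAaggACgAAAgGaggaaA
Sox13: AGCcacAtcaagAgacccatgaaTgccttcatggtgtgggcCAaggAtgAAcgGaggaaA
Sox8 and Sox10 each matched Sox9 at 53 of the 60 bases, whereas Sox5 and Sox13 matched it at 47 and Sox6 at 45. The stretch lies within 1 exon in every member, at chr11:112782891-112782950 on the plus strand for Sox9 and at chr15:79163354-79163413 on the minus strand for Sox10. Over whole transcripts, the longest run shared without a mismatch by any pair of members was 44 bases, between Sox9 (chr11:112782831-112782874) and Sox10 (chr15:79163430-79163473), all of it coding.
Sox9 and Sox10 shared run: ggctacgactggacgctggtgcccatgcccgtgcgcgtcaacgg
The other pairs shared runs of 14 to 26 bases. The read length and the handling of reads with several matches are not given in the sources used here, and how reads from the shared run of Sox9 and Sox10 were assigned was not tested.

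In the placodes, Sox5, Sox6, Sox13 and Sox9 were higher and Sox8 and Sox10 were lower than in the SMGs. All 6 genes passed the adjusted threshold, where 76.2% of all tested features did. Higher values in the placodes were called for 35.7% of the features and lower ones for 40.4%, and the median log2 fold change of all tested features was -0.05. Sox5, Sox6, Sox9 and Sox10 passed the threshold with a log2 fold change of 1 or more in size, as did 29.4% of the features. For none of the 6 genes did the sample values of placodes and SMGs overlap, as was the case for 88.4% of the tested features. A call alone therefore set the members apart from few other features. In whole-tissue RNA, fewer cells with a transcript and less of it per cell cannot be told apart.

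**Figure D1:**
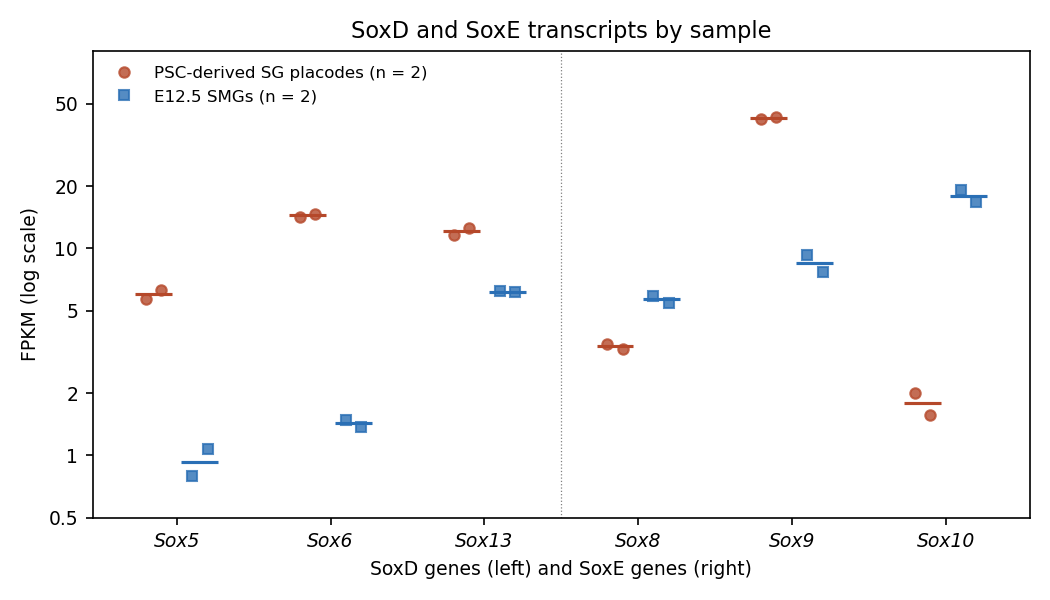
FPKM on a log axis of the 3 SoxD genes (left) and the 3 SoxE genes (right) in each sample; circles are placode samples, squares are SMG samples and horizontal lines are group means (n = 2 each). Circles lie above squares for Sox5, Sox6, Sox13 and Sox9 and below them for Sox8 and Sox10.

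Sox9, on chromosome 11 (112782224 to 112787760, plus strand, 3 exons), was at 42.1 and 43.0 FPKM in the placode samples and at 9.31 and 7.66 FPKM in the SMG samples. Both placode samples stood above both SMG samples, with means 5.01-fold apart. Sox10, on chromosome 15 (79154908 to 79165240, minus strand), showed the opposite, with 2.00 and 1.58 FPKM in the placode samples but 19.1 and 16.7 FPKM in those of SMGs. Its mean of 17.9 ± 1.67 (SD, n = 2) in the SMGs was 10.0-fold that of 1.79 ± 0.297 (SD, n = 2) in the placodes. The log2 fold change of Sox10 was -2.76 (standard error 0.11, limma adjusted p = 3.63e-06), and 5.47% of the tested features had a larger absolute change. For Sox9 it was 2.20 (standard error 0.09, adjusted p = 3.66e-06), and 9.19% of the features had a larger one.

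Sox8, on chromosome 17 (25565892 to 25570686, minus strand), acts alongside its SoxE relatives in neural crest, glia and gonad. It was at 3.46 and 3.26 FPKM in the placode samples and at 5.87 and 5.47 FPKM in the SMG samples. The SMG samples were the higher ones, by 1.69-fold between the means. The log2 fold change was -0.61 (standard error 0.09, adjusted p = 1.21e-03), and 46.3% of the tested features had a larger absolute change. The annotation places an antisense gene, 2810468N07Rik, over 329 exonic bases of Sox8. Whether the reads were counted by strand is not given in the sources used here, so reads of the antisense gene and of Sox8 cannot be told apart there.

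The 3 SoxE genes together differed less than Sox9 or Sox10 alone. Summed, they reached 47.6 and 47.8 FPKM in the placode samples and only 34.3 and 29.9 FPKM in the SMG samples, a ratio of means of 1.49. The makeup of this sum differed. Sox9 held 88.5% and 89.9% of it in the placode samples, but 27.2% and 25.6% of it in the SMG samples. Sox10 held 4.20% and 3.30% in the placode samples but 55.7% and 56.0% in the SMG samples, where it was the main SoxE transcript. For Sox8 the share was 7.05% ± 0.326 (SD, n = 2) of the sum for the placodes, while for the SMGs it was 17.7% ± 0.856 (SD, n = 2). Within a sample, FPKM of Sox9 was 21.1 and 27.3 times that of Sox10 in the placodes, while Sox10 was 2.05 and 2.19 times Sox9 in the SMGs. The log2 ratio of Sox9 to Sox10 therefore differed by 5.67 between the group means. These shares and ratios do not depend on how the samples are scaled to each other. An exact two-sided permutation test of 2 samples against 2 gave p = 0.333 for each share, the smallest value that it can give.

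**Figure D2:**
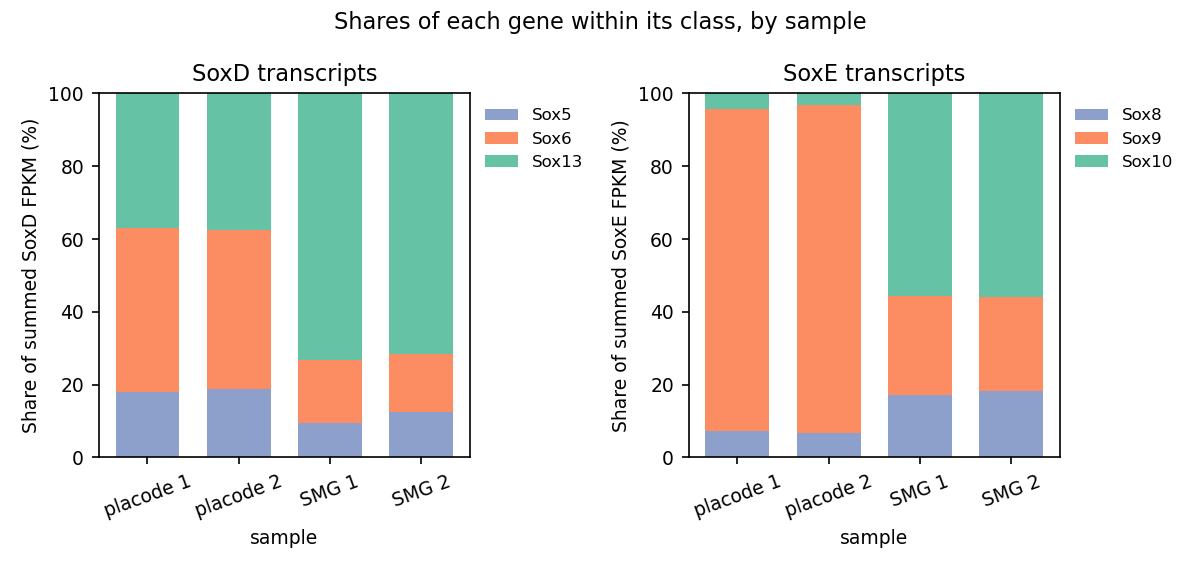
Shares (percent) of the summed FPKM of the SoxD genes (left) and of the SoxE genes (right) held by each gene in each of the 4 samples. Sox9 fills 88.5% and 89.9% of the SoxE bar in the placode samples, and Sox10 fills 55.7% and 56.0% of it in the SMG samples.

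The 3 SoxD genes were all higher in the placodes, and Sox6 differed most. Sox6, on chromosome 7 (115470872 to 116038796, minus strand, 17 exons), takes part in cartilage, muscle, interneuron and red blood cell development. It was at 14.2 and 14.7 FPKM in the placode samples and at 1.49 and 1.37 FPKM in the SMG samples. The placode samples were higher, with means 10.1-fold apart. Its log2 fold change was 2.67 (standard error 0.09, adjusted p = 1.51e-06), and 5.89% of the tested features had a larger absolute change.

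Sox5, on chromosome 6 (143828425 to 144781977, minus strand), is the closest relative of Sox6 and acts with it in cartilage and in neural progenitors. It was at 5.72 and 6.28 FPKM in the placode samples and at 0.794 and 1.08 FPKM in the SMG samples. Its SMG values were the lowest of all 6 genes. The means were 6.42-fold apart, and the log2 fold change was 1.86 (standard error 0.12, adjusted p = 2.33e-05). Of 7 annotated genes inside the Sox5 locus, 5 lie on the opposite strand, and 1 of them, Sox5os1, covers 1330 exonic bases of Sox5, so its reads could enter the value of Sox5.

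Sox13, on chromosome 1 (133382303 to 133424377, minus strand), is known from the neural tube, arterial walls and T cells. It was at 11.6 and 12.6 FPKM in the placode samples and at 6.21 and 6.17 FPKM in the SMG samples. The placode samples were again the higher ones, but with means only 1.96-fold apart. Its log2 fold change was 0.87 (standard error 0.08, adjusted p = 1.00e-04). A larger absolute change was found for 34.2% of the tested features.

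Summed over the class, SoxD transcripts were at 31.6 and 33.6 FPKM in the placode samples and at 8.49 and 8.62 FPKM in the SMG samples, a ratio of means of 3.81. Sox13 made up 73.1% and 71.6% of this sum in the SMG samples. In the placode samples it made up 36.9% and 37.4%, and Sox6 was the most abundant SoxD transcript with 45.0% and 43.9%. SoxD genes as a class held 39.9% and 41.3% of the summed FPKM of all 6 genes in the placode samples, but only 19.8% and 22.4% in the SMG samples. SoxE genes held the rest, 59.4% ± 0.960 (SD, n = 2) for the placodes and, for the SMGs, 78.9% ± 1.80 (SD, n = 2).

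By FPKM, which is per length, the order in the placodes was Sox9, Sox6, Sox13, Sox5, Sox8 and Sox10. In the SMGs it was Sox10, Sox9, Sox13, Sox8, Sox6 and Sox5. Sox10 was thus last in one group and first in the other, while Sox13 took place 3 in both. Neighbours in these orders did not overlap in their sample values. In the SMGs, Sox13 (6.17 to 6.21 FPKM) lay near Sox8 (5.47 to 5.87 FPKM), and Sox6 (1.37 to 1.49 FPKM) near Sox5 (0.794 to 1.08 FPKM). All 6 genes were at 1 FPKM or more in both placode samples, and 5 of them in both SMG samples, with Sox5 as the exception.

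The rest of the Sox family gave a reference for these differences. Of 13 other Sox genes, 10 were tested and all 10 passed the adjusted threshold, 7 higher and 3 lower in the placodes, with a median log2 fold change of 2.11. Over all tested features, 76.2% passed, 35.7% higher and 40.4% lower. The counts of the lists below stand against the same shares. The SoxB genes, known from neural progenitors, were all higher among those tested. Sox2 was at 131 and 130.0 FPKM in the placode samples and at 6.53 and 5.33 FPKM in the SMG samples, and Sox21 was at 46.3 and 47.4 FPKM against 1.94 and 2.10 FPKM. Sox3 was at 72.5 and 69.1 FPKM in the placode samples and below 0.25 FPKM in the SMG samples, and Sox1 was at 4.46 and 4.21 FPKM against 0.0130 and 0. The SoxC genes, which act in progenitors and newborn neurons as well as in mesenchyme, were also higher, with log2 fold changes of 1.89 for Sox4, 2.34 for Sox11 and 0.57 for Sox12. The SoxF genes, known from endothelium and, for Sox17, from endoderm, were lower, with -1.52 for Sox7, -2.13 for Sox17 and -3.37 for Sox18. Of these classes, SoxE had members in both directions, while the tested SoxB, SoxC, SoxD and SoxF genes each moved 1 way. Sox1, Sox3 and Sox5 passed the filter only through the placodes, and Sox17 and Sox18 only through the SMGs. The direction of these genes was set by the filter and adds nothing to that contrast. Sox14, Sox15 and Sox30 stayed below 0.6 FPKM in every sample and were not tested.

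**Figure D3:**
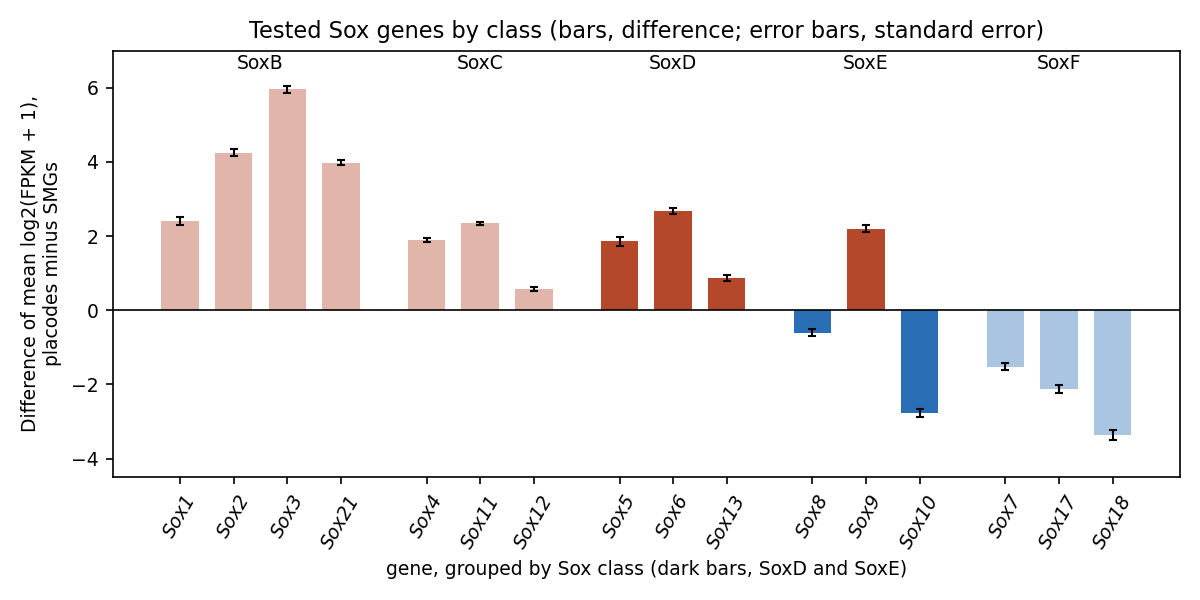
Difference of mean log2(FPKM + 1), placodes minus SMGs, for the 16 tested Sox genes grouped by class; error bars are standard errors from limma, red bars are higher and blue bars lower in the placodes, and dark bars are SoxD and SoxE genes. The SoxE bars point both ways, from -2.76 for Sox10 to 2.20 for Sox9.

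Sox10 is best known from neural crest and its Schwann cell precursors, so the genes of that lineage were read beside it. Of 11 listed genes, 7 were tested, of which 4 were lower and 2 higher in the placodes (median log2 fold change -0.62). Erbb3, the neuregulin receptor of Schwann cell precursors and a known Sox10 target, was at 0.671 and 0.550 FPKM in the placode samples and at 11.8 and 11.2 FPKM in the SMG samples. Its log2 fold change was -2.96 (standard error 0.10, adjusted p = 1.64e-06). By FPKM, its SMG mean was 18.9-fold its placode mean, against 10.0-fold for Sox10. Mitf, a pigment cell regulator, had a log2 fold change of -0.62. Erbb3 and Mitf passed the filter only through the SMGs, so their direction was set by the filter. Cdh19, a cadherin of Schwann cell precursors, had a value of 0 in both placode samples and was at 1.91 and 1.85 FPKM in the SMG samples.

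Some other crest genes had values in the opposite direction. Ednrb, the endothelin receptor of crest cells, which neural progenitors also use, was at 117 and 115 FPKM in the placode samples and at 10.5 and 10.9 FPKM in the SMG samples. For Ret, the GDNF receptor, the log2 fold change was 0.76. Foxd3, an early crest regulator, was at 4.40 and 3.56 FPKM in the placode samples and at 2.99 and 3.15 FPKM in the SMG samples, and its log2 fold change of 0.29 did not pass the threshold (adjusted p = 0.0640). It passed under 5 alternatives, with adjusted p between 0.0382 and 0.0487, 1 of them without placode sample 2 (0.0420). S100b and Dct were below 1 FPKM in every sample and were not tested. S100b had the direction of Sox10, at 0.0672 and 0.0393 FPKM in the placode samples and 0.606 and 0.482 FPKM in the SMG samples. Dct had the opposite one, at 0.275 and 0.324 FPKM against 0.181 and 0.0665 FPKM.

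Sox9, Sox5 and Sox6 act together in cartilage, where they switch on genes of the matrix. Of 13 listed genes, 8 were tested, of which 7 were lower and 1 was higher in the placodes (median log2 fold change -2.35). Col2a1, the main cartilage collagen and a direct target of Sox9, was at 6.14 and 6.46 FPKM in the placode samples and at 40.5 and 32.1 FPKM in the SMG samples. Both SMG samples lay far above the placode samples, and Sox9 had the opposite direction. Whether Sox9 acts on Col2a1 in these samples was not tested. Acan, the cartilage proteoglycan aggrecan, was at 0.00665 and 0.0164 FPKM in the placode samples and at 4.06 and 4.23 FPKM in the SMG samples. The collagen IX genes were also lower in the placodes, with log2 fold changes of -3.84 for Col9a1, -3.64 for Col9a3 and -2.91 for Col9a2. For Matn4 and Col11a1 they were -1.43 and -0.67. Col11a2 was the member that was higher, by 0.61 (adjusted p = 0.0147), and it missed the threshold without SMG sample 1 (adjusted p = 0.0692) and without SMG sample 2 (0.0983). Hapln1 was at 0.109 and 0.0631 FPKM in the placode samples and at 1.38 and 1.49 FPKM in the SMG samples, and Comp, Matn1, Ucma and Snorc were below 0.4 FPKM in every sample. Of the genes counted above, Col9a1, Col9a3, Acan and Matn4 passed the filter only through the SMGs and Col11a2 only through the placodes. Their direction was set by the filter.

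FGF10 from the mesenchyme signals through Fgfr2 to the epithelium of the salivary bud, the place of Sox9 and Sox10 expression there. All 8 listed genes of this axis were tested, with 6 lower and 2 higher in the placodes (median log2 fold change -2.46). Fgf10, the mesenchymal ligand, was at 0.465 and 0.123 FPKM in the placode samples, which were cultured with added FGF10 protein, and at 45.5 and 46.1 FPKM in the SMG samples. Fgf10 passed the filter only through the SMGs, so its direction was set by the filter. Etv5 and Etv4, transcription factors switched on by FGF signaling, had log2 fold changes of -2.99 and -3.17. Etv5 was at 2.89 and 2.60 FPKM in the placode samples and at 28.6 and 28.8 FPKM in the SMG samples. The feedback inhibitors Dusp6, Spry1 and Spry2 were lower too, with -2.91, -2.02 and -1.25. Fgfr2 itself was higher by 0.45 (standard error 0.05, adjusted p = 4.02e-04), and stood at 37.5 and 35.5 FPKM in the placode samples and at 26.0 and 26.8 FPKM in the SMG samples. Kit, a receptor of the bud's progenitors and also of other lineages, was higher by 1.34.

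In the neural tube, Sox9 and the SoxD genes belong to the change from neuron to glia production. Of 12 listed gliogenic genes, all tested, 5 were called higher and 6 lower in the placodes (median log2 fold change -0.22). Fabp7, a lipid carrier of radial glia, was at 343 and 367 FPKM in the placode samples and at 14.6 and 10.9 FPKM in the SMG samples. Hes5, a Notch target of neural progenitors, was at 122 and 124 FPKM in the placode samples and at 0.0343 and 0.193 FPKM in the SMG samples. Apcdd1, a Wnt inhibitor, rose by 2.20, the glutamate transporter gene Slc1a3 by 1.24 and Notch1 by 1.00. Nfia, which acts with Sox9 at the start of gliogenesis, was at 7.90 and 7.55 FPKM in the placode samples and at 7.44 and 7.40 FPKM in the SMG samples, and it did not pass the threshold (log2 fold change 0.05, adjusted p = 0.569). Its relatives Nfib and Nfix, also expressed in mesenchyme, were lower, Nfib with a log2 fold change of -1.87 and Nfix at 3.46 and 3.83 FPKM in the placode samples, while its SMG values were 18.2 and 16.9 FPKM. Zcchc24, Aldh1l1 and Hes1 were lower too, with -2.21, -1.10 and -0.49. Hes5 passed the filter only through the placodes, and Aldh1l1 and Mmd2 only through the SMGs, so their direction was set by the filter. Mmd2 was called lower with -0.70 (adjusted p = 6.02e-03), but not without placode sample 2 (adjusted p = 0.0638).

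Of 8 genes of the oligodendrocyte lineage, in which Sox8, Sox9 and Sox10 all act, 4 were tested, 2 higher and 2 lower (median log2 fold change -0.74). Olig2, a regulator that is not limited to this lineage, was at 1.13 and 1.96 FPKM in the placode samples and listed at 0 in both SMG samples. Olig1 and Nkx2-2 were below 0.2 FPKM in every sample. Pdgfra and Cspg4, which mesenchyme and pericytes also express, were lower, with log2 fold changes of -3.71 and -1.91. Cspg4 passed the filter only through the SMGs, so its direction was set by the filter. Mbp was higher by 0.67 (adjusted p = 5.99e-04). Myrf was higher by 0.42 (adjusted p = 0.0302), a call that was lost without placode sample 2 (adjusted p = 0.148), without SMG sample 1 (0.0697), without SMG sample 2 (0.162) and when features of any level were tested (0.0683). Bcas1 was below 1 FPKM throughout.

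**Figure D4:**
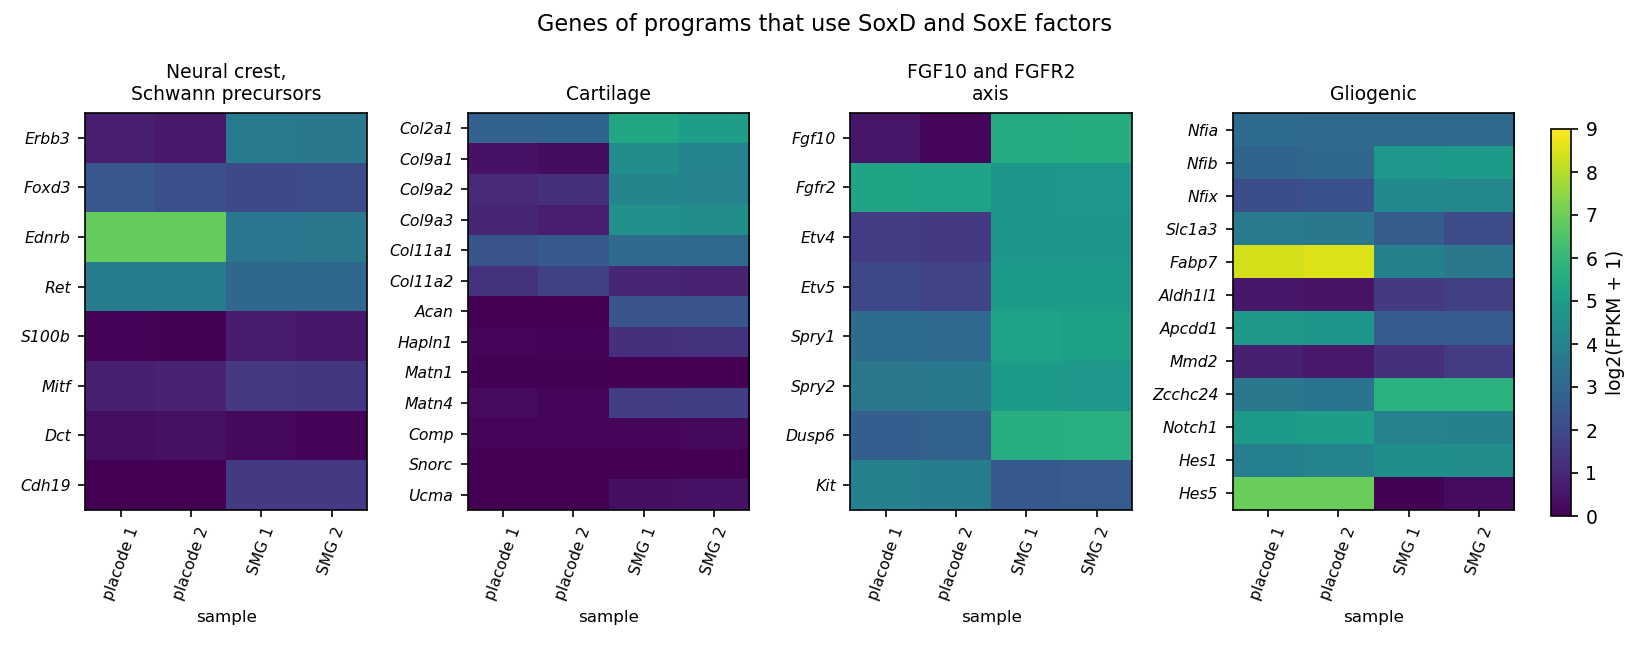
Heatmaps of log2(FPKM + 1), from 0 (dark) to 9 (yellow), in the 4 samples for genes of 4 lists: neural crest and Schwann cell precursors, cartilage, the FGF10 and Fgfr2 axis, and gliogenic genes. The 2 samples of a group look alike, Erbb3, the collagen IX genes and Etv5 are brighter in the SMGs, and Ednrb, Fabp7 and Hes5 are brighter in the placodes.

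Markers of the cell types that could carry these transcripts moved with the groups. All 10 salivary epithelial markers were at 1 FPKM or more in both SMG samples, against 5 in both placode samples, and their summed FPKM was 635 and 604 in the SMG samples and 73.4 and 80.2 in the placode samples. Krt5, Krt14 and Krt15, keratins of the basal epithelium, were listed at 0 in both placode samples. Trp63, a regulator of the same cells, was at 0.0286 and 0.0262 FPKM in the placode samples and at 13.6 and 13.2 FPKM in the SMG samples. Pitx1, the marker with the most transcripts in the SMGs, was at 0.539 and 0.429 FPKM in the placode samples and at 245 and 253 FPKM in the SMG samples. Krt5, Krt14, Krt15, Trp63 and Pitx1 passed the filter only through the SMGs, so their direction was set by the filter. Krt8 and Krt18 made up much of the placode sum, with log2 fold changes of 0.13 and 0.34 that did not pass the threshold (adjusted p = 0.322 and 0.0541). Krt18 passed it under 6 alternatives, with adjusted p between 0.0253 and 0.0494, and Krt8 without SMG sample 1 (0.0156). Of the 10 epithelial markers, 7 were lower and 1, Krt19, was higher in the placodes, and Krt19 was not called without placode sample 1 (adjusted p = 0.0658) or 2 (0.0826). The 9 neural progenitor markers, which include Sox1, Sox2, Sox3, Fabp7 and Hes5 from the lists above, and the 8 neuronal markers were all higher in the placodes, with median log2 fold changes of 4.25 and 3.46. Of the progenitor markers, 4 were at 1 FPKM or more in both SMG samples. The rest passed the filter only through the placodes, so their direction was set by the filter. The progenitor markers summed to 874 and 901 FPKM in the placode samples and to 66.5 and 62.5 FPKM in the SMG samples. Hes5 had the highest log2 fold change of the progenitor markers, 6.80, and Nes, an intermediate filament gene that other cell types also express, the lowest, 1.03. The sums of the neuronal markers were 1153 and 1181 FPKM against 112 and 100.2 FPKM. Tubb3, a tubulin of neurons, was the most abundant of them, at 345 and 365 FPKM in the placode samples and at 41.6 and 37.1 FPKM in the SMG samples. The log2 fold changes of the list ran from 2.92 for Dcx to 4.11 for Snap25.

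Of 10 mesenchyme markers, which include Pdgfra and Fgf10 from the lists above, 9 were lower in the placodes (median log2 fold change -2.65). Their sums were 667 and 656 FPKM in the placode samples and 2264 and 2213 FPKM in the SMG samples. Col3a1, a fibrillar collagen and the most abundant of them in the SMGs, was at 83.3 and 79.8 FPKM in the placode samples and at 881 and 849 FPKM in the SMG samples. Vim was higher by 0.26, but not past the threshold without placode sample 1 (adjusted p = 0.0603) or 2 (0.0536). The 6 endothelial markers were all lower (median log2 fold change -3.32), with sums of 12.2 and 11.6 FPKM against 113 and 120.5 FPKM. Their log2 fold changes ran from -4.09 for Pecam1 to -1.93 for Cdh5, the most abundant of them in both groups. All 4 tested erythroid markers of 7, and all 5 tested skeletal muscle markers of 7, were lower as well. Only 2 endothelial markers, and only Tnnt1 of the muscle list, were at 1 FPKM or more in both placode samples. No marker of the erythroid list was. The tested markers below that level in the placodes passed the filter only through the SMGs, as did Fgf10. Their direction was set by the filter. The erythroid list summed to 0.224 and 0.399 FPKM in the placode samples and to 2193 and 2094 FPKM in the SMG samples. Hbb-y, an embryonic globin, had a value of 0 in both placode samples and was at 1336 and 1266 FPKM in the SMG samples, Alas2 was at 0 and 0.124 FPKM against 8.54 and 7.49 FPKM, and Klf1, the highest of the list in the placodes, was at 0.198 and 0.144 FPKM against 0.480 and 0.637 FPKM. The muscle list summed to 2.21 and 1.99 FPKM in the placode samples and to 170 and 120 FPKM in the SMG samples. Actc1, a muscle actin, was at 0.158 and 0.165 FPKM in the placode samples and at 80.4 and 55.0 FPKM in the SMG samples, Tnnt1 was at 1.93 and 1.59 FPKM against 29.8 and 24.1 FPKM, and Myod1 was at 0 and 0.0648 FPKM against 10.1 and 6.99 FPKM. Sox9, Sox6 and Sox5 are expressed by neural progenitors, Sox9 and Sox10 by salivary epithelium and Sox10 by Schwann cell precursors. The part of these cell types in the differences of the 6 genes was not tested, and cell makeup cannot be told apart from regulation within a cell type in these samples.

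The genes with the level pattern nearest to each member were sought by Euclidean distance over the 4 values of log2(FPKM + 1). Sox9 was nearest to Ccdc85c (distance 0.07), at 42.4 and 41.7 FPKM in the placode samples, followed by Higd1a (0.19). Sox10 was nearest to Efna1 (0.05), the gene of ephrin A1, at 2.07 and 1.59 FPKM against 18.7 and 17.1 FPKM, followed by Aebp1 (0.24). For Sox8 the nearest were Sema3c (0.07) and Etnk2 (0.09). Sox6 lay nearest to Rims3 (0.12) and Tmem198 (0.16), Sox5 to Prelid3a (0.09) and Ripor2 (0.19), and Sox13 to Aagab (0.11) and Peli2 (0.12). With 4 samples in 2 groups, such nearness says only that the levels are alike.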

How the data were processed

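Total RNA of 2 samples of PSC-derived SG placodes and 2 samples of E12.5 SMGs was sequenced as paired-end reads. The authors mapped the reads with HISAT2 and deposited FPKM values per feature. The submitters' processing notes name GRCm38 and also GRCh38, with no role given, and the features are mouse Ensembl genes. Not given in the sources used here are the HISAT2 version, the annotation, the strandedness and the tool behind the FPKM values. Fragment counts are not among the values used here, so depth is unknown.

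Of 24771 features, 13193 had a mean of at least 1 FPKM and were tested as log2(FPKM + 1) in limma 3.58.1 (R 4.3.3) by a linear model with group as its term and moderated, intensity-trended variances, two-sided, with Benjamini-Hochberg adjustment over all tested features. A pseudocount of 1 makes the fold changes of low genes smaller than ratios of FPKM. Lists were described by counts and medians. The members and lists were chosen with earlier results of these data known. Named were the 6 members, the 13 other Sox genes, every gene of the crest, cartilage, gliogenic, oligodendrocyte and FGF10 lists, in other lists the genes with the highest and lowest log2 fold change and the most abundant gene of each group, and the 2 genes nearest to each member. Krt5, Krt14, Krt15, Krt18 and Trp63 fall outside this rule and were named after their values were seen. Values of 3 genes of the crest list, which its counts and median include, are not reported here. Coordinates and transcripts came from GENCODE M21 (GRCm38). The procedure was run on simulated data in which few features differed, unlike the 76.2% called here. That run cannot show how the calls perform when most features differ. Alternatives changed the pseudocount, scaling, filter, variance model, replicate block and samples.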

Additional observations from a re-analysis of the deposited data

How the results depend on the processing

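The log2 fold changes of the 6 genes kept their direction and their side of the threshold in all 94 refits, which covered 16 alternatives for Sox6, Sox13, Sox9 and Sox10 and 15 for Sox5 and Sox8, whose mean was below 5 FPKM. They ranged from 1.75 to 2.70 for Sox5, 2.64 to 3.34 for Sox6, 0.81 to 0.97 for Sox13, -0.75 to -0.56 for Sox8, 2.08 to 2.33 for Sox9 and -3.33 to -2.66 for Sox10, with adjusted p of at most 0.0217 (Sox8, 1 replicate left out). When a mean of at least 5 FPKM was required, fewer genes were tested, and the calls were 5 of the cartilage list, 2 of the oligodendrocyte list and 1 of a list of cartilage and bone partners, against 8, 4 and 5. The other counts of calls stayed within 1.5 times, and over all tested features, leaving out 1 replicate gave 8501 to 9087 calls against 10049, where the lone sample left in a group is assumed to vary like the other group. The log2 fold change of Krt8, 0.13 with all samples, was -0.042 (adjusted p = 0.512) without E12.5 SMGs replicate 2 and 0.30 (adjusted p = 0.0156) without replicate 1. The cause was not tested. The replicate number as a block gave 10043 calls over all features and changed the call of Krt18 only among the genes named. The deviations of same-numbered samples correlated at -0.0348, and the samples share only a number. With 2 samples a group, the precision is limited by their number, and genes near 1 FPKM by an unknown depth.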

Other observations

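Genes that work with Sox9 and the SoxD factors at the growth plate were read as a further list of 9, of which 6 were tested. Ptch1, a hedgehog receptor and target, was at 29.0 and 32.7 FPKM in the placode samples and at 5.51 and 5.59 FPKM in the SMG samples, and its log2 fold change was 2.28 (limma adjusted p = 1.71e-06). Bmpr1b, a BMP receptor, was higher by 1.07. Pthlh, the ligand that restrains cartilage maturation, was at 0.145 and 0.170 FPKM in the placode samples and at 8.66 and 9.50 FPKM in the SMG samples. Its receptor gene Pth1r was at 25.8 and 25.6 FPKM against 26.6 and 27.5 FPKM (log2 fold change -0.07, adjusted p = 0.258). Runx2 and Gdf5 were lower, with -0.75 and -1.16. Pthlh, Runx2 and Gdf5 passed the filter only through the SMGs, so their direction was set by the filter. Runx3, Nkx3-2 and Ihh were below 1 FPKM in every sample.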
